A study of Homo sapiens with 16 samples.

Results

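miR-221 and miR-222 are processed from neighbouring hairpins on chromosome X, and the levels of their 4 mature products were examined in OE19 cells treated with telmisartan. The members were the probes named hsa-miR-222-3p, hsa-miR-221-3p, hsa-miR-221-5p and hsa-miR-222-5p (the species prefix is left out from here on), 4 of the 2565 miRNA probes on the array. OE19 is a cell line established from an esophageal adenocarcinoma (EAC), a tumor of the lower esophagus with columnar features, and telmisartan is an antagonist of the angiotensin II type 1 receptor. Total RNA came from OE19 cells exposed to 100 μM telmisartan for 48 h (8 arrays) and from OE19 cells given no telmisartan (control, 8 arrays), and both groups share the line, its medium and the culture time. A single line was used, and no source used here tells whether separate cultures lie behind the 8 arrays of each group. The p-values therefore refer to the spread among these arrays, part or all of which may be technical. RNA was taken from whole cultures, in which fewer cells with a miRNA and less of it per cell cannot be told apart.

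A miRNA hairpin is cut to a short duplex whose arms are called 5p and 3p. The arm kept in the silencing complex pairs with target mRNAs through its seed, bases 2 to 8 from the 5′ end, and lowers their translation or stability. The 3p arms are the main products of both hairpins. They are known as repressors of CDKN1B, which encodes the cell cycle inhibitor p27, and of CDKN1C, KIT and TIMP3, and they are abundant in many carcinomas. The hairpins are transcribed together as a common primary transcript. The study addressed arrest of the cell cycle under telmisartan.

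The mature sequences are shown because the 3p arms share their seed, which is in capitals along with that of miR-222-5p. They are RefSeq entries of GRCh38.p14, from the minus strand of chromosome X.
miR-222-3p: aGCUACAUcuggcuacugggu
miR-221-3p: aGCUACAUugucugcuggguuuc
miR-222-5p: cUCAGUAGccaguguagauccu
miR-222-3p lies at chrX:45747036-45747056, miR-221-3p at chrX:45746180-45746202 and miR-222-5p at chrX:45747073-45747094. The 3p arms have the same 8 bases at the 5′ end and share the run CUGGGU near the 3′ end, and 18 positions were identical when they were aligned. Their seed GCUACAU was found in 2 mature miRNAs of the RefSeq table, which are these members, while UCAGUAG was found only in miR-222-5p. Because the 3p sequences are this similar, part of the signal of either probe could come from the other miRNA, which was not tested. miR-221-5p is named only.

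The hairpins show where the arms sit, with the mature arms given above in capitals.
MIR222: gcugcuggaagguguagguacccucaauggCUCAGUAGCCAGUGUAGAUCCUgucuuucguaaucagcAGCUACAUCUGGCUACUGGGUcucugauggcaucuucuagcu
MIR221: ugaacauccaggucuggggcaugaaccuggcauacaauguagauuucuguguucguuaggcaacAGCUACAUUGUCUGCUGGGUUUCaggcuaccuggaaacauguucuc
MIR222 lies at chrX:45747015-45747124 and MIR221 at chrX:45746157-45746266, both on the minus strand, with 748 bases between them. Both are inside the annotated long noncoding RNA gene MIR222HG (chrX:45745214-45770267).

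Each array gave 1 intensity per probe, and a probe was called detected where its raw intensity exceeded the mean of the blank spots by 2 SD. Telmisartan arrays had 458 to 1885 detected probes (median 931) and control arrays had 454 to 1621 (median 804). The authors' normalized values cover the 382 probes detected on all 16 arrays, among them miR-222-3p and miR-221-3p, whereas the 5p arms were detected on some arrays only. Earlier results showed that arrays numbered 1 to 4 and 5 to 8 lie apart in both groups, and the labels name no batch, so results are also given within these array sets. The epithelial markers (miR-200c-3p, miR-141-3p, miR-200b-3p and miR-429) and the columnar gut markers (miR-192-5p, miR-194-5p and miR-215-5p) were detected on all arrays. Their summed background-subtracted intensities were 2971 to 4958 on telmisartan arrays and 2745 to 4107 on control arrays for epithelial, and 2673 to 4532 on telmisartan arrays and 2316 to 5601 on control arrays for columnar gut markers. The squamous marker miR-205-5p was detected on 5 telmisartan arrays and 3 control arrays. The endothelial marker miR-126-3p was also detected on all arrays, at background-subtracted intensities of 37.3 to 77.8 on telmisartan arrays and 19.3 to 68.6 on control arrays. None of the 4 smooth muscle and fibroblast markers or of the 5 blood markers was detected on all arrays. The summed intensities of these lists were 0 to 14.4 on telmisartan arrays and 0 to 11.6 on control arrays for smooth muscle and fibroblast, and 0 to 20.0 on telmisartan arrays and 3.58 to 26.4 on control arrays for blood.

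miR-222-3p was higher in telmisartan-treated cells. Its normalized intensity had a lowest value of 131.6, a median of 177.3 and a highest value of 220.2 on telmisartan arrays, against 73.1, 110.6 and 140.6 on control arrays. All 8 telmisartan arrays lay above the control median and 6 lay above every control array, so the groups overlapped slightly. The means were 170.8 ± 29.9 on telmisartan arrays and 109.2 ± 19.5 on control arrays (SD, n = 8 each). The log2 fold change was 0.65 (SE 0.13), a fold of 1.57 with a 95% confidence interval of 1.29 to 1.90 (limma, adjusted p = 0.00222). miR-222-3p was therefore 1 of 37 probes that were higher at this threshold, 9.69% of the 382 tested (28 were lower, 7.33%), and its log2 fold change ranked 8 from the top. The study listed miR-222-3p for its change on these same arrays, so this rise is not independent evidence.

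miR-221-3p, which has the same seed, differed less between groups. Its normalized intensity had a lowest value of 296.6, a median of 344.04 and a highest value of 415.3 on telmisartan arrays, against 264.4, 297.3 and 372.0 on control arrays. The groups overlapped over most of their range, with 2 telmisartan arrays above every control array and 6 above the control median. The means were 344.0 ± 41.5 on telmisartan arrays and 301.5 ± 34.2 on control arrays (SD, n = 8 each). The log2 fold change was 0.19 (SE 0.09), a fold of 1.14 with a 95% confidence interval of 1.00 to 1.30, and it did not pass the threshold after adjustment over all probes (limma, unadjusted p = 0.0473, adjusted p = 0.177). An unadjusted p under 0.05 with a higher level was seen in 14.1% of the probes, and 25.4% of the probes had a higher log2 fold change than miR-221-3p.

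**Figure D1:**
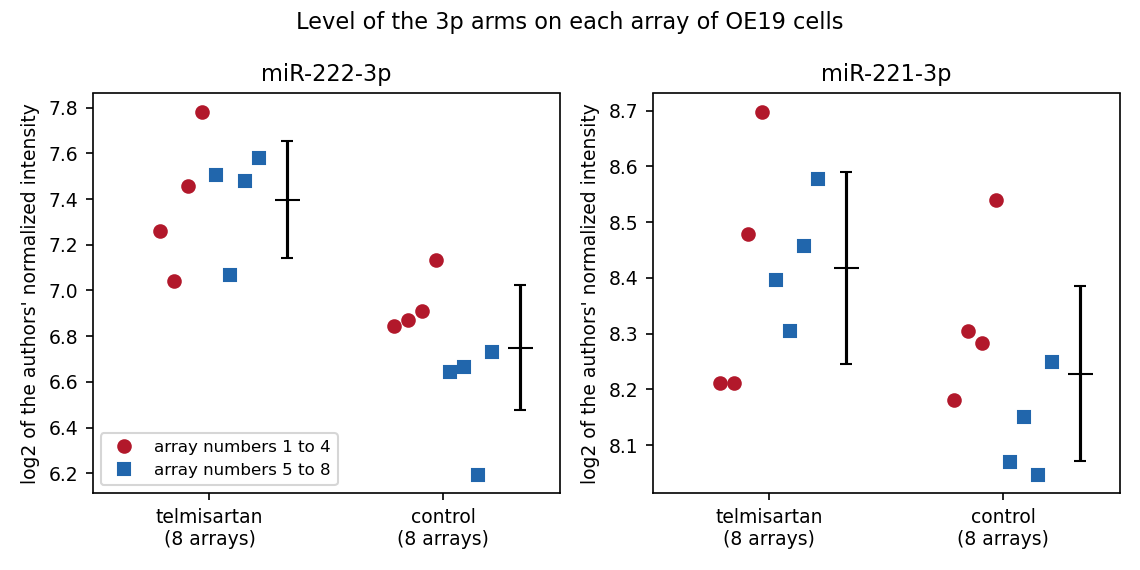
Log2 normalized intensity (vertical axis) of miR-222-3p and miR-221-3p on each of 8 telmisartan and 8 control arrays, with circles for array numbers 1 to 4, squares for 5 to 8 and bars for the mean and SD. For miR-222-3p, 6 telmisartan arrays lie above every control array, and for miR-221-3p 2 do.

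Both 3p arms were also brighter on average with telmisartan before normalization. The background-subtracted intensity of miR-222-3p, with no scaling between arrays, was 176.7 ± 36.6 on telmisartan arrays and 103.5 ± 17.9 on control arrays (SD, n = 8 each). For miR-221-3p it was 369.5 ± 62.4 on telmisartan arrays and 275.5 ± 40.5 on control arrays. On this scale the median of all 382 probes was itself higher in telmisartan-treated cells, by 0.18 in log2 fold change, while it was -0.01 on the normalized values. Without scaling the log2 fold changes were 0.76 (SE 0.16) for miR-222-3p and 0.42 (SE 0.15) for miR-221-3p, with adjusted p = 0.00582 and adjusted p = 0.0880 in limma.

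The level of miR-222-3p relative to miR-221-3p on the same array separated the groups. The log2 ratio was -0.95, -1.17, -1.02, -0.92, -0.89, -1.24, -0.98 and -0.999 on telmisartan arrays 1 to 8, against -1.34, -1.44, -1.37, -1.40, -1.42, -1.49, -1.85 and -1.52 on control arrays 1 to 8. Every telmisartan array had a higher ratio than every control array. The mean was -1.02 ± 0.12 in telmisartan-treated cells and -1.48 ± 0.16 in control cells (SD, n = 8 each), a difference of 0.46 (SE 0.072) or 1.37-fold. An exact two-sided permutation test gave p = 0.000155, the smallest that 12870 splits of the arrays allow. The study had listed miR-222-3p, and not miR-221-3p, for its change on these same arrays. The test was chosen with earlier results known, so its p does not measure an unselected comparison. The ratio compares the changes of the 2 probes, and its level says nothing on which miRNA was more abundant, since probes differ in brightness.

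The separation was also present before normalization. On background-subtracted intensities the mean log2 ratio was -1.07 ± 0.085 on telmisartan arrays and -1.42 ± 0.088 on control arrays, with a difference of 0.34 and no overlap (exact permutation p = 0.000155, n = 8 each). On raw intensities the difference was 0.26, again with no overlap (exact permutation p = 0.000155, n = 8 each). The difference was 0.37 within array numbers 1 to 4 and 0.55 within 5 to 8 on the normalized values, and 0.34 and 0.35 on background-subtracted intensities. The groups did not overlap in either set, where an exact permutation test of 4 against 4 arrays cannot give a p below 0.0286, the value obtained in both.

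Other pairs of probes also separated the groups. On background-subtracted intensities, 4.20% of the 72771 possible pairs of table probes had ratios that did not overlap between the groups. Among the 68 pairs from hairpins within 10 kb of each other on the same strand, 8.82% did so. That share counts the pair of miR-221-3p and miR-222-3p itself, and these pairs share probes. Neither share was counted on the normalized values. The difference of 0.34 lay close to the median size of 0.38 among those neighbouring pairs, of which 36 differed by more.

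**Figure D2:**
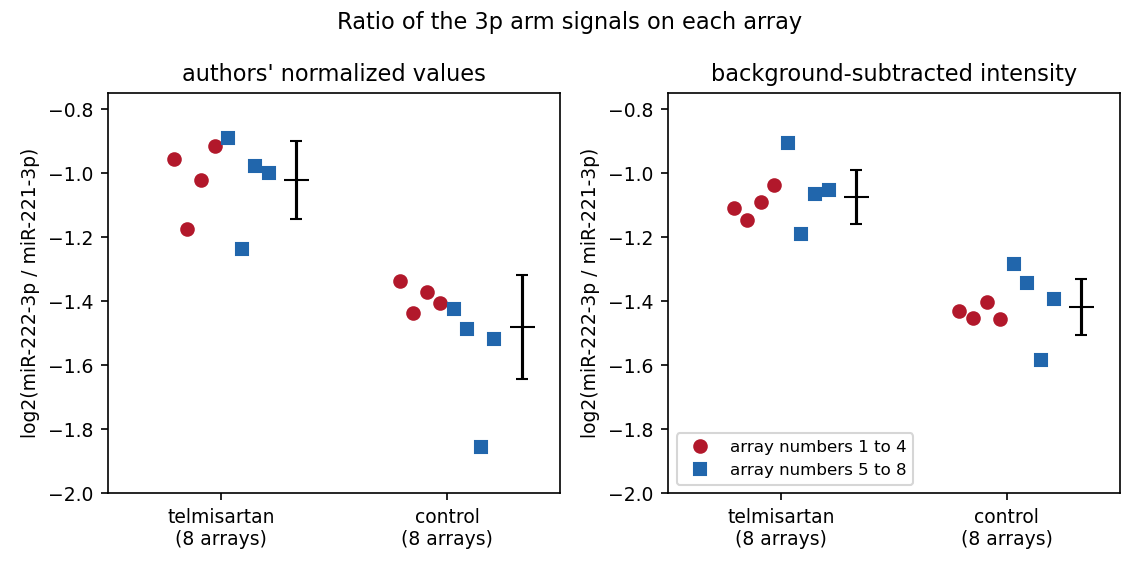
Log2 ratio of miR-222-3p to miR-221-3p (vertical axis) on each telmisartan and control array, for the authors' normalized values and for background-subtracted intensities, with bars for the mean and SD of 8 arrays. Every telmisartan array lies above every control array in both panels, with means of -1.02 on telmisartan arrays and -1.48 on control arrays for the normalized values.

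Both array sets gave a higher mean of miR-222-3p with telmisartan. In array numbers 5 to 8 its normalized intensity was 171.5 ± 25.4 on telmisartan arrays and 95.2 ± 14.9 on control arrays, with a log2 fold change of 0.85 (limma, adjusted p = 0.0101, n = 4 each). In array numbers 1 to 4 the values were 170.2 ± 37.9 on telmisartan arrays and 123.2 ± 11.8 on control arrays, with a log2 fold change of 0.44 that did not pass the threshold (limma, adjusted p = 0.0554, n = 4 each). On these normalized values the telmisartan mean was similar in both sets and the control mean was lower in array numbers 5 to 8. On background-subtracted intensities the means in array numbers 5 to 8 were 192.3 ± 30.0 on telmisartan arrays and 106.3 ± 22.6 on control arrays, and in array numbers 1 to 4 they were 161.04 ± 39.7 on telmisartan arrays and 100.6 ± 14.6 on control arrays (SD, n = 4 each). The difference between the sets was 0.41 (SE 0.23) and was not past the threshold (limma interaction, adjusted p = 0.163), whereas 35.3% of all probes were past it for this term. With median scaling the difference was 0.67 (adjusted p = 0.0553).

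miR-221-3p passed the threshold in array numbers 5 to 8 alone, where limma called 44 of all 382 probes higher and 29 lower. Its normalized intensity there was 346.6 ± 27.7 on telmisartan arrays and 280.3 ± 18.0 on control arrays, a log2 fold change of 0.31 (limma, adjusted p = 0.0358, n = 4 each). In array numbers 1 to 4 it was 341.4 ± 56.9 on telmisartan arrays and 322.6 ± 34.8 on control arrays, a log2 fold change of 0.07 (limma, adjusted p = 0.713, n = 4 each). The difference between the sets was 0.23 (SE 0.16, limma interaction, adjusted p = 0.254). With median scaling it was 0.66 and past the threshold (adjusted p = 0.0357). On the normalized values 35.3% of all probes were past the threshold for this term. That share was not counted with median scaling, so how common such a call is there is not known.

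The 5p arms were at the limit of detection. miR-221-5p was detected on 5 of 8 telmisartan arrays, at 1.88 to 3.00 above background, and on 1 of 8 control arrays, at 3.28. The difference in detection did not pass 0.05 (Fisher's exact test, two-sided, p = 0.119). The telmisartan arrays that detected it had 817 to 1885 detected probes and those that did not had 458 to 639, while the control array that detected it had 1621 and the others had 454 to 1460. The part of this number in the detection of miR-221-5p was not tested. Of the 1840 probes outside the table with any detection, 0.272% were detected on at least 4 more telmisartan than control arrays, a margin taken from miR-221-5p itself, and 52.2% were detected on more telmisartan than control arrays. With detection at 3 SD, miR-221-5p was detected on 3 telmisartan arrays and 1 control array (Fisher's exact test, p = 0.569).

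miR-222-5p was detected on 1 of 8 telmisartan arrays, at 1.73 above background, and on 2 of 8 control arrays, at 1.36 and 1.80 (Fisher's exact test, two-sided, p = 1). These 3 arrays had 1460 to 1885 detected probes. On the other arrays its signal was below the detection level, so a change was not measurable at this signal, and none of the arrays detected it at 3 SD.

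**Figure D3:**
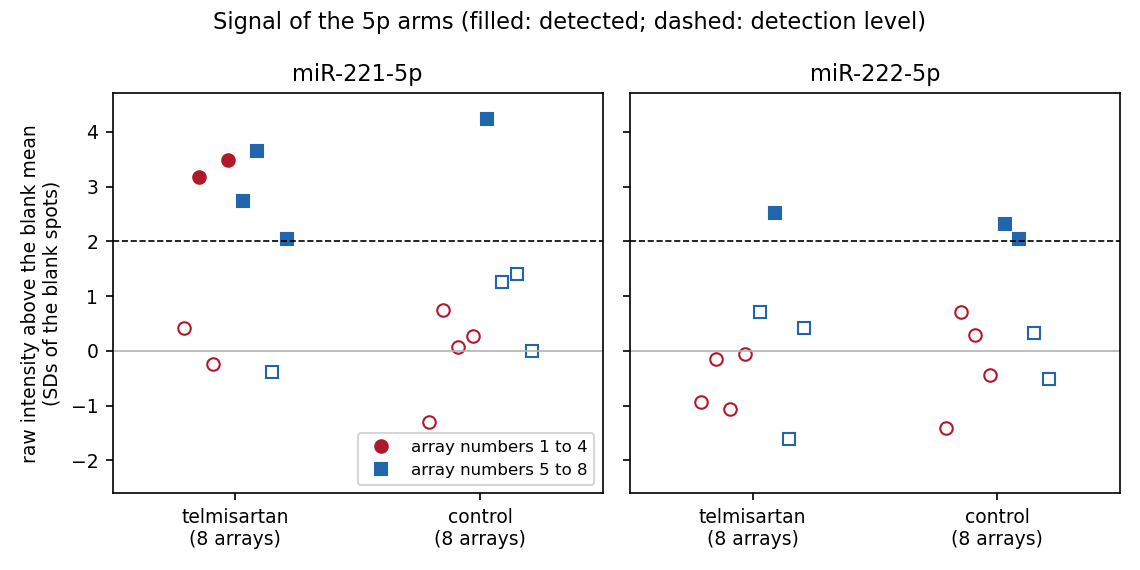
Raw intensity of the 5p arms above the mean of the blank spots, in SDs of the blank spots (vertical axis), on telmisartan and control arrays, with filled points for detected arrays and a dashed line at the detection level of 2 SD. miR-221-5p is filled on 5 telmisartan arrays and 1 control array, and miR-222-5p on 1 telmisartan array and 2 control arrays.

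Other miRNAs reported to bind CDKN1B mRNA were compared, since p27 is the best known target product of the 3p arms. The list was chosen with earlier results of these data known. The study had also listed miR-152-3p as raised on these same arrays. The counts are therefore a description and not independent evidence. Of 5 measured, 3 were higher, 0 were lower and 2 did not pass the threshold (limma, adjusted over all probes), where 9.69% of all 382 probes were higher and 7.33% were lower. The median log2 fold change was 0.34, against -0.01 over all 382 probes. It was 0.11 with normexp and 0.20 without background subtraction. Under the other settings that use all arrays it was between 0.24 and 0.49. The highest medians were 0.49 with the authors' global normalization, 0.43 with quantile normalization over the probes detected on each array and 0.43 without scaling. In these settings the median of all probes tested was itself 0.24, 0.24 and 0.18. The same counts, 3 and 0, were obtained at an unadjusted p under 0.05 and with the exact Mann-Whitney test. Median scaling and no scaling each left 2 higher, and quantile normalization over the probes detected on each array and the authors' global normalization each left 0. Of all 382 probes, 54 were higher at an unadjusted p under 0.05 and 35 with the Mann-Whitney test. With median scaling 17 of all probes were higher, and without scaling 18. miR-24-3p, which also represses other cell cycle genes, had a lowest value of 592.8, a median of 629.8 and a highest value of 715.2 on telmisartan arrays, against 462.6, 492.3 and 563.5 on control arrays. Every telmisartan array lay above every control array, as in 2.36% of the probes, and its fold was 1.27 (limma, adjusted p = 0.00106). miR-181a-5p was 1.46-fold higher (limma, adjusted p = 0.00146), with 351.4 to 476.5 on telmisartan arrays and 220.2 to 343.7 on control arrays, again without overlap. miR-152-3p was 1.55-fold higher (limma, adjusted p = 0.0130), with 10.5 to 20.6 on telmisartan arrays and 6.95 to 12.5 on control arrays. miR-148a-3p (0.962-fold, adjusted p = 0.956), of the same family as miR-152-3p, and miR-196a-5p (1.03-fold, adjusted p = 0.898) were not past the threshold in limma. CDKN1B mRNA was not measured on these arrays. The study blotted p27 protein in OE19 cells under telmisartan, and its text describes no result for p27.

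**Figure D4:**
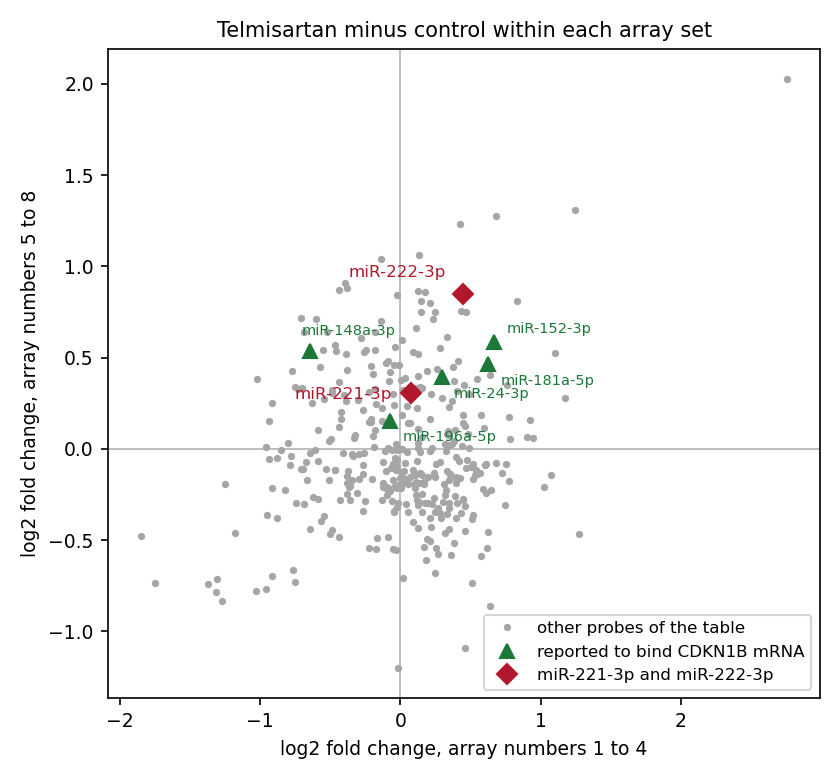
Log2 fold change, telmisartan minus control, of the 382 probes within array numbers 1 to 4 (horizontal axis) and 5 to 8 (vertical axis), with miR-222-3p and miR-221-3p as diamonds and miRNAs reported to bind CDKN1B mRNA as triangles. miR-222-3p lies at 0.44 and 0.85, and miR-221-3p at 0.07 and 0.31.

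In the fit over all arrays, the miRNAs encoded on the same chromosome as the cluster were called about as often as all probes. All hairpins lay on chromosome X for 28 probes of the table. Of these, 2 were higher, 3 were lower and 23 did not pass the threshold, with a median log2 fold change of -0.06 (26 probes without the members had a median of -0.07). Over all 382 probes, 9.69% were higher, 7.33% were lower and 317 did not pass. The median of the chromosome X probes was 0.07 with mean scaling and 0.11 without scaling, against 0.14 and 0.18 over all probes. Their counts differed between the array sets. In array numbers 1 to 4, 2 were higher and 10 lower (median -0.20), against 74 and 70 of all 382 probes. They were thus called lower more often than all probes in that set, and higher less often. Several of the chromosome X probes come from hairpins within 10 kb of each other, such as miR-18b-5p and miR-20b-5p, or miR-188-5p and miR-362-3p. The counts are therefore not of separate loci. In array numbers 5 to 8, 5 were higher and 4 lower (median -0.08), against 44 and 29 of all probes. With the array set as a block, 3 were higher and 6 lower, against 48 and 49 of all probes. In the fit over all arrays the higher ones were miR-222-3p and miR-361-3p (1.77-fold). The lower ones were miR-18b-5p (0.480-fold), miR-188-5p (0.550-fold) and miR-105-5p (0.803-fold).

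Over the 16 arrays, log2 miR-222-3p and log2 miR-221-3p followed each other with Pearson's r = 0.871 (Spearman's rho = 0.872), and r was 0.910 within telmisartan arrays and 0.854 within control arrays. After the mean of each group and array set was subtracted, r was 0.846. Among 379 compared probes, miR-222-3p was the one most like miR-221-3p, while miR-221-3p ranked 6 for miR-222-3p, after let-7g-5p (r = 0.933), miR-181b-5p (r = 0.930), miR-125a-5p (r = 0.921), miR-22-5p (r = 0.907) and miR-30d-5p (r = 0.876). Within groups, miR-221-3p ranked 2 for miR-222-3p (r = 0.879). For miR-221-3p, the next after miR-222-3p were miR-125a-5p (r = 0.835), miR-378d (r = 0.822), let-7g-5p (r = 0.816) and miR-378e (r = 0.801). The values are a description: the arrays share 1 normalization, the groups differ in several of these miRNAs, and the similar 3p sequences could share signal.

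**Figure D5:**
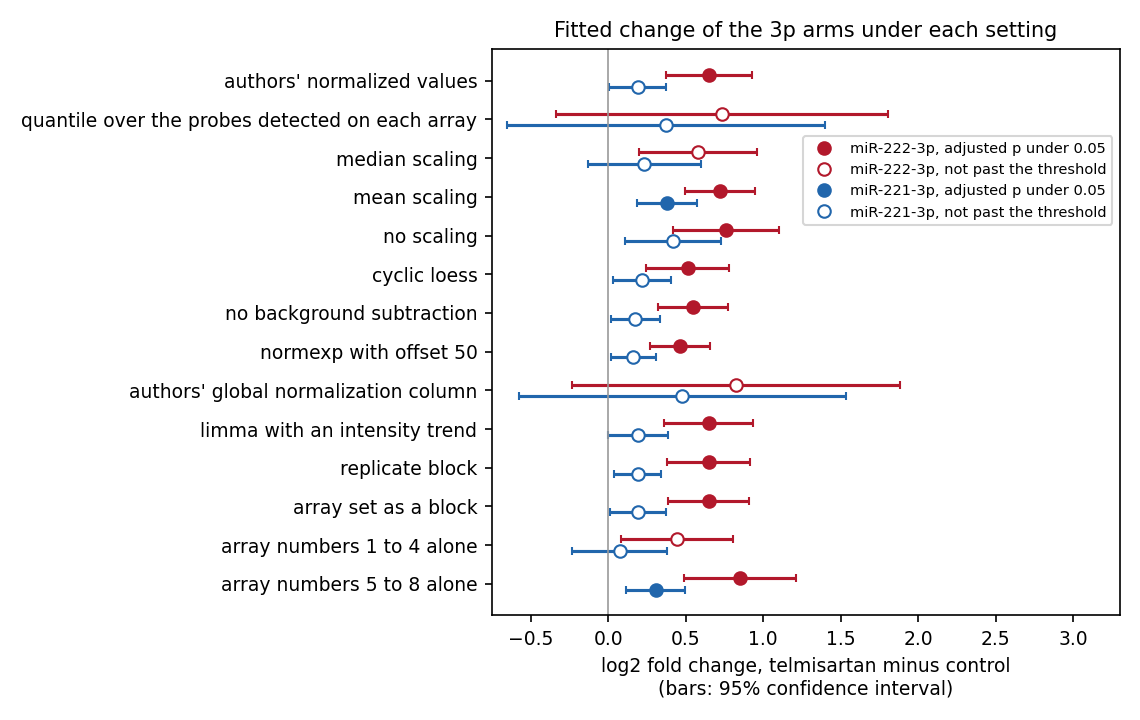
Log2 fold change, telmisartan minus control (horizontal axis), of miR-222-3p and miR-221-3p under each setting (vertical axis), with bars for the 95% confidence interval and filled points for an adjusted p under 0.05 in limma. The point lies above 0 for both miRNAs under every setting drawn, between 0.44 and 0.85 for miR-222-3p and between 0.07 and 0.48 for miR-221-3p.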

How the data were processed

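Single-color arrays of telmisartan-treated (8) and control (8) OE19 cells were used. The authors deposited, for each spot, the raw intensity, the intensity after subtraction of the mean of the blank spots (the highest and lowest 5% removed) and a globally normalized intensity scaled to a median of 25.0, with probes under 2 SD above background left empty. They also deposited a table of normalized intensity for 382 probes, which is linear and has a median of 37.74 in each column. It was rebuilt to a relative difference of 4.88e-10 by quantile normalizing the intensities left after background subtraction over those probes. In all, 343 probes were detected on no array, and 10 spots were marked as not good, with 0 of them in the members.

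Log2 of the normalized values was fitted with limma 3.58.1 in R 4.3.3, telmisartan minus control, with Benjamini-Hochberg adjustment over all 382 probes and a threshold of 0.05. Detection was compared by Fisher's exact test and the ratio of the 3p arms by an exact permutation test over arrays (SciPy 1.17.1). No limma fit was made for the 5p arms, which were detected on fewer than 6 of 8 arrays in each group. The methods' test was the Mann-Whitney test, used here as an alternative. Deviations of same-numbered telmisartan and control arrays correlated at 0.149 to 0.864 for the 8 numbers, all over 0.1, but at -0.458 to 0.455 once array sets were removed. The numbers were used as a block in an alternative, although no label pairs the arrays. Within array sets the correlations were of both signs, so they do not show a pairing. Sequences and positions were taken from RefSeq, where all miRNAs of 335 of the 382 probes matched. The fits were tested on simulated data. The named miRNAs were the 4 members, miRNAs reported to bind CDKN1B mRNA, those of chromosome X past the threshold, those sharing a member's seed and the 5 probes most correlated with each 3p arm. The members, lists and tests were chosen with earlier results of these data known. Other settings covered the scaling, the background, the filter, the test, the array set and each array left out. The number of arrays limits the precision.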

Additional observations from a re-analysis of the deposited data

Results flagged for a closer look

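Among 10 groups of values of the members that were examined for a sample far from the others, 1 stood out, and chance gives about 1 in 20 groups. The log2 ratio of miR-222-3p to miR-221-3p on control array 7 was -1.85, with the nearest control array at -1.52, a gap of 0.647 of the range of the group. That array also had the lowest normalized intensity of miR-222-3p, 73.1. On background-subtracted intensities its ratio was -1.58. Without it the fitted log2 fold change of miR-222-3p was 0.57 (limma, adjusted p = 0.00237).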

How the results depend on the processing

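The fitted log2 fold changes of miR-222-3p and miR-221-3p were above 0 under all settings run, but calls depended on the scaling. miR-222-3p did not pass the threshold with quantile normalization over the probes detected on each array (0.74, adjusted p = 1), with median scaling (0.58, adjusted p = 0.0559), with the authors' global normalization (0.82, adjusted p = 0.996, added after seeing the data) or in array numbers 1 to 4 alone (0.44, adjusted p = 0.0554). miR-221-3p passed it with mean scaling (0.38, adjusted p = 0.00797) and in array numbers 5 to 8 alone (0.31, adjusted p = 0.0358), and its difference between array sets did so with median scaling (0.66). The share of all probes past the threshold for that difference was not counted with median scaling. The cause of this dependence on the setting was not tested. The median log2 fold change of all probes was 0.14 with mean scaling, 0.18 with no scaling and 0.24 both with quantile normalization over detected probes and with the global normalization. Against 37 higher and 28 lower probes, limma called 0 and 0 with quantile normalization over detected probes (5 and 2 at an unadjusted p under 0.05 among 646), 1 and 0 with the global normalization (3 and 0 unadjusted), 17 and 14 with median scaling, 18 and 12 without scaling, 48 and 19 with mean scaling, 74 and 70 in array numbers 1 to 4 alone, and 49 lower with the array set as a block. The Mann-Whitney test called 35 higher and 23 lower.

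With the replicate number as a block, limma gave an adjusted p of 0.00478 for miR-222-3p (log2 fold change 0.65) and 0.0796 for miR-221-3p (log2 fold change 0.19), with 37 higher and 38 lower probes, so the block changed neither call. Leaving out each array in turn gave 30 to 38 higher and 21 to 32 lower probes, a log2 fold change of 0.57 to 0.70 for miR-222-3p and 0.15 to 0.23 for miR-221-3p, and a difference between array sets of 0.28 to 0.54 for miR-222-3p and 0.16 to 0.33 for miR-221-3p. The difference in the log2 ratio was 0.40 to 0.49. The number of telmisartan arrays minus control arrays with miR-221-5p detected was 3 to 5. Fisher's exact test passed 0.05 without control array 5 (p = 0.0256) and without telmisartan array 1, 3 or 7 (p = 0.0406 each). Control array 5 was the only control array that detected it, and these telmisartan arrays were those that did not. The lower p-values follow from these counts, and these omissions were not planned for detection. For miR-222-5p the difference in the number of arrays was -2 to 0. The alternatives planned for a limma fit of the 5p arms gave no value, since those arms were detected on too few arrays. Depth is not known for arrays, and signal near the background limits what can be said of the 5p arms.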
